A study of Homo sapiens with 6 samples.

Results

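PAX6 was described here through the chromatin marks over its genomic window, the stretch of chromosome 11 from 31800 to 31850 kb on genome build hg19. All peaks of the deposited H3K4me3 and H3K27me3 lists that overlapped this window were taken, which gave 46 peaks of 142800 in all 4 lists. For H3K4me3 the window held 17 peaks in Low-Chir against 8 in Boost-Chir, and for H3K27me3 6 against 15. The cells were day 11 neural progenitors from a protocol for midbrain dopamine neurons, made from the human embryonic stem cell line H9 (WA-09). Both conditions started in medium with SHH C25II, the BMP receptor inhibitor LDN, the TGF-beta receptor inhibitor SB431542 and 0.7 µM CHIR99021, an inhibitor of GSK3 that activates canonical WNT signalling. Boost-Chir cultures received 7.5 µM CHIR99021 from day 4 to day 10, and 3 µM was used from day 10. The dose that Low-Chir cultures received from day 4 is not stated by condition in the labels. Chromatin immunoprecipitation and sequencing (ChIP-seq) was done in 1 library per mark and condition, so no difference below has a replicate check and no test was possible. All libraries came from a single cell line grown in bulk culture, in which fewer cells with a mark and less of the mark per cell cannot be told apart. No transcripts were measured, so the labelled cell type could not be checked against marker genes.

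PAX6 encodes a transcription factor with a paired domain and a homeodomain. It acts in the developing forebrain, the eye and parts of the hindbrain and spinal cord. In the embryo its expression in the diencephalon ends at the border with the midbrain, where engrailed genes and PAX2 are expressed instead. H3K4me3, trimethylation of lysine 4 of histone H3, marks active and poised promoters. H3K27me3 is deposited by Polycomb repressive complex 2 and covers silenced developmental genes, often as broad domains over CpG-rich DNA. Promoters that carry both marks are called bivalent and are common among developmental regulators.

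PAX6 has many transcription start sites, and whether they relate to the width of its marks was not tested. The RefSeq promoter table for GRCh38.p14 held 9 entries for PAX6, all on the minus strand, so the gene is read toward lower coordinates. Their start sites were spread over 17.3 kb. Each entry runs from 250 bases before to 50 bases after a start. Of the 9, 5 had more CG dinucleotides than the median of 14 over all 35116 entries. The most upstream start, the start richest in CG and the poorest one are printed to show this range, with each CG in capitals. They held 24, 32 and 5 CG, numbers reached by 33.9%, 18.9% and 70.4% of all entries. The table follows another build than the peaks, so no start was placed on the map and no peak was assigned to an exon, intron or promoter. Starts are numbered from the most upstream one, and the sequences run 5′ to 3′ on the strand of the gene:
PAX6 start 1: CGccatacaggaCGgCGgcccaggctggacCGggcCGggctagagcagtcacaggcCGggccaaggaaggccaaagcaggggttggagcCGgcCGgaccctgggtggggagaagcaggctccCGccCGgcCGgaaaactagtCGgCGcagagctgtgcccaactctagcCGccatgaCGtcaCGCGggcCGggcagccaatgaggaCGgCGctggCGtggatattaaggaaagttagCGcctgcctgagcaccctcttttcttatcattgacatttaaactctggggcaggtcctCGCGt
PAX6 start 7: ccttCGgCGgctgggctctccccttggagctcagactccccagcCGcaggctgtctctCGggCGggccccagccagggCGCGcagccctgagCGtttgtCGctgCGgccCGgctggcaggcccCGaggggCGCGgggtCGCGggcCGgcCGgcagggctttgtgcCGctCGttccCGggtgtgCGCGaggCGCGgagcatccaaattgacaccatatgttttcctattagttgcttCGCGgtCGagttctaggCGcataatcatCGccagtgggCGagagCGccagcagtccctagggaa
PAX6 start 5: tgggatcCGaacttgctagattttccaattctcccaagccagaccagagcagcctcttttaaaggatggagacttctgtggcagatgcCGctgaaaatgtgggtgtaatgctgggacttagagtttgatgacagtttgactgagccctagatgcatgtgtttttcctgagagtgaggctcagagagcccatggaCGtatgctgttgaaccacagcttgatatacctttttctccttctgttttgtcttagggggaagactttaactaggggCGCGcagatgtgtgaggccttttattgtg

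The lists held between 25725 and 46793 peaks. The deposited values allowed the reads at each summit to be recovered. The genome-wide background, which is proportional to depth, was 1.21 times as high in Boost-Chir as in Low-Chir for H3K4me3 and 0.971 times for H3K27me3. The median peak had 17 and 18 reads at its summit for H3K4me3, and 20 and 18 for H3K27me3. Counts of this size leave wide intervals, and the exact 95% Poisson intervals given below cover counting error only.

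In Low-Chir, H3K4me3 was present in the PAX6 window as a broken series of moderate peaks. The 17 peaks covered 12.7 kb, or 25.3% of the window, and had fold enrichments of 3.06 to 7.54 with a median of 4.58, against a median of 5.00 over the whole list. Fold enrichment is the authors' value at the summit over their local background. The peaks formed 2 groups when those within 3 kb were joined. The group at lower coordinates, from 31818621 to 31822081, had 4 peaks over 3.00 kb and held the highest one of the window. That peak, from 31820398 to 31821572, was 7.54-fold enriched with 25 reads at its summit (16.2 to 36.9) over a background of 2.45 reads. The larger group ran from 31825941 to 31839986 and had 13 peaks over 9.65 kb. Its highest peaks were at 31832310 to 31832840, with 6.57-fold enrichment and 23 reads (14.6 to 34.5), and at 31834233 to 31836467, with 6.23-fold and 19 reads (11.4 to 29.7). The longest, from 31829766 to 31832220, measured 2455 bp and was 4.76-fold enriched with 26 reads (17.0 to 38.1). The highest peak of the window exceeded 71.8% of all H3K4me3 peaks of the Low-Chir list in fold enrichment.

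**Figure D1:**
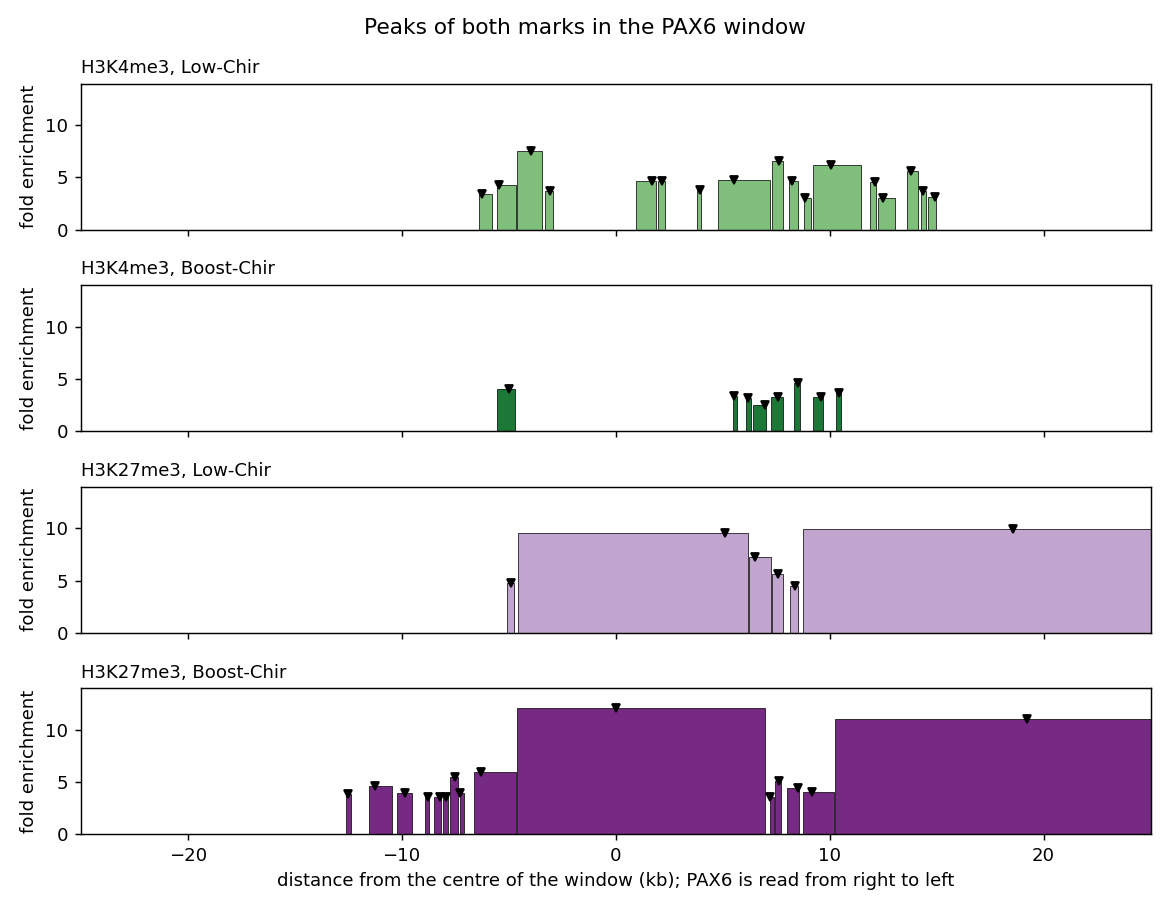
Peaks of each mark and condition in the PAX6 window, by distance from the window's centre in kb (horizontal) and fold enrichment (vertical). Each bar spans 1 peak, its height is the fold enrichment at the summit, and the triangle marks the summit. H3K4me3 has 17 peaks in Low-Chir against 8 in Boost-Chir, whereas both H3K27me3 lists show 2 long peaks and the Boost-Chir list has 8 further short ones on the left.

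In Boost-Chir, H3K4me3 over PAX6 consisted of a few short and weak peaks. Its 8 peaks covered 3.36 kb, 0.265 times the length in Low-Chir, and had fold enrichments of 2.46 to 4.63 with a median of 3.32. With the top 50% of each list by −log10 q the ratio was 0.0387, since 1 Boost-Chir peak of 0.268 kb passed. The group at lower coordinates had 1 peak of 839 bp, at 31819468 to 31820306, with 4.07-fold enrichment and 14 reads (7.65 to 23.5). The larger group had 7 peaks over 2.52 kb, all between 31830480 and 31835524. The highest of them, at 31833349 to 31833616, was 4.63-fold enriched with 19 reads (11.4 to 29.7). Of the outer parts of the larger group, the left had no peak in Boost-Chir and the right had 1 of 200 bp. Between 31825 and 31830 kb, 1.69 kb was under H3K4me3 in Low-Chir against 0 kb in Boost-Chir, and between 31835 and 31840 kb 3.67 kb against 0.2 kb. In the centre of the group, between 31830 and 31835 kb, 4.30 kb stood against 2.32 kb. The Boost-Chir peaks therefore lay where Low-Chir was already marked: 96.0% of the bases under H3K4me3 in Boost-Chir were also under it in Low-Chir, while 25.4% of the Low-Chir bases were under it in Boost-Chir.

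Most Low-Chir peaks of PAX6 had no counterpart. Of the 17 H3K4me3 peaks, 12 had no overlapping Boost-Chir peak, against 16.4% of all Low-Chir peaks. In the other direction, 0 of the 8 Boost-Chir peaks lacked a Low-Chir peak, against 40.4% of all Boost-Chir peaks. The 12 had fold enrichments of 3.06 to 7.54, most of them below the list median of 5.00, and lay 86 bp to 4.07 kb from the nearest Boost-Chir peak. They were pieces of 2 groups. The share of 16.4% covers peaks of all heights, and none was computed for peaks as weak as most of these. The highest of the window was among the 12. Of all 12420 Low-Chir peaks at least as enriched as this one, 15 (0.121%) had no overlapping Boost-Chir peak. A Boost-Chir peak ended 91 bp to its left, so the site is not far from H3K4me3 in Boost-Chir. A missing peak means that the signal did not reach the authors' threshold, and the weakest Boost-Chir peaks genome-wide had 9 reads at their summit. The reads needed depend on the local background, so a site with more than 9 reads can lack a peak. Boost-Chir peaks of the window with 12 and 17 reads had −log10 q of 2.74 and 2.12, over backgrounds of 3.10 and 6.31 reads.

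The 5 H3K4me3 peaks of Low-Chir that did have a partner were lower in Boost-Chir by fold enrichment. Such a decrease was seen at 28.1% of the 36789 matched peaks of the lists, where the median ratio of Boost-Chir to Low-Chir was 1.24. In the PAX6 window the median was 0.708 and the ratios ran from 0.497 to 0.997. The lowest ratio was at the sharp peak near 31832659, where 6.57-fold with 23 reads in Low-Chir stood against 3.27-fold with 17 reads (9.90 to 27.2) in Boost-Chir. A ratio this low or lower was found at 0.555% of the matched peaks. Near 31830521, 26 reads in Low-Chir stood against 13 (6.92 to 22.2) in Boost-Chir, with the summits 2 bp apart. The peak near 31833267 had almost the same fold enrichment in both, 4.64 and 4.63, with 14 and 19 reads. Once scaled to depth, the reads above background were lower in Boost-Chir at 4 of the 5 and 1.10 times as high at this one. The counting intervals of each of these 5 pairs overlapped. The local background at the summits of the window was 2.21 to 4.68 reads in Low-Chir against 2.69 to 6.31 in Boost-Chir.

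**Figure D2:**
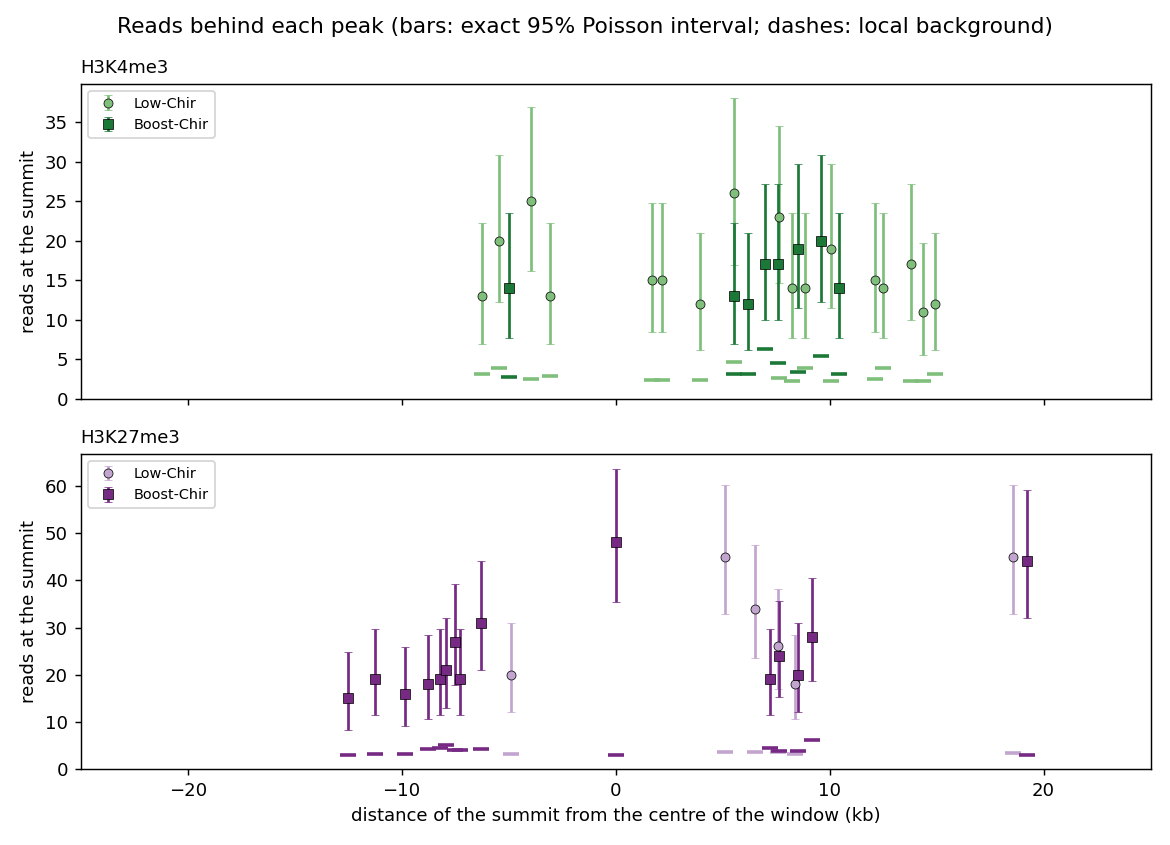
Reads at the summit of every peak in the PAX6 window (vertical) by distance of the summit from the window's centre in kb (horizontal), for H3K4me3 (top) and H3K27me3 (bottom). Vertical bars are exact 95% Poisson intervals and dashes the local background. H3K4me3 summits hold 11 to 26 reads in Low-Chir against 12 to 20 in Boost-Chir, and the intervals overlap widely.

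Against the rest of the genome, the H3K4me3 length at PAX6 differed in the less common direction. Both H3K4me3 loci of PAX6, made by joining peaks of the 2 conditions within 3 kb, were at least 2 times shorter in Boost-Chir. Among all 15235 loci marked in Low-Chir, 6.79% were this much shorter or had no Boost-Chir peak, a number that includes many short loci. Among the 10392 loci with at least 2 kb in either condition it was 0.529%. The larger PAX6 locus had 0.261 times and the smaller 0.279 times the Low-Chir length. Of the 14475 loci with peaks in both conditions, 0.228% had a ratio at or below that of the larger and 0.297% at or below that of the smaller. The change in length from Low-Chir to Boost-Chir was -7.14 kb at the larger locus, and 2 of 16580 loci had a lower value. At the smaller it was -2.17 kb, and 49 loci had a lower value.

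**Figure D3:**
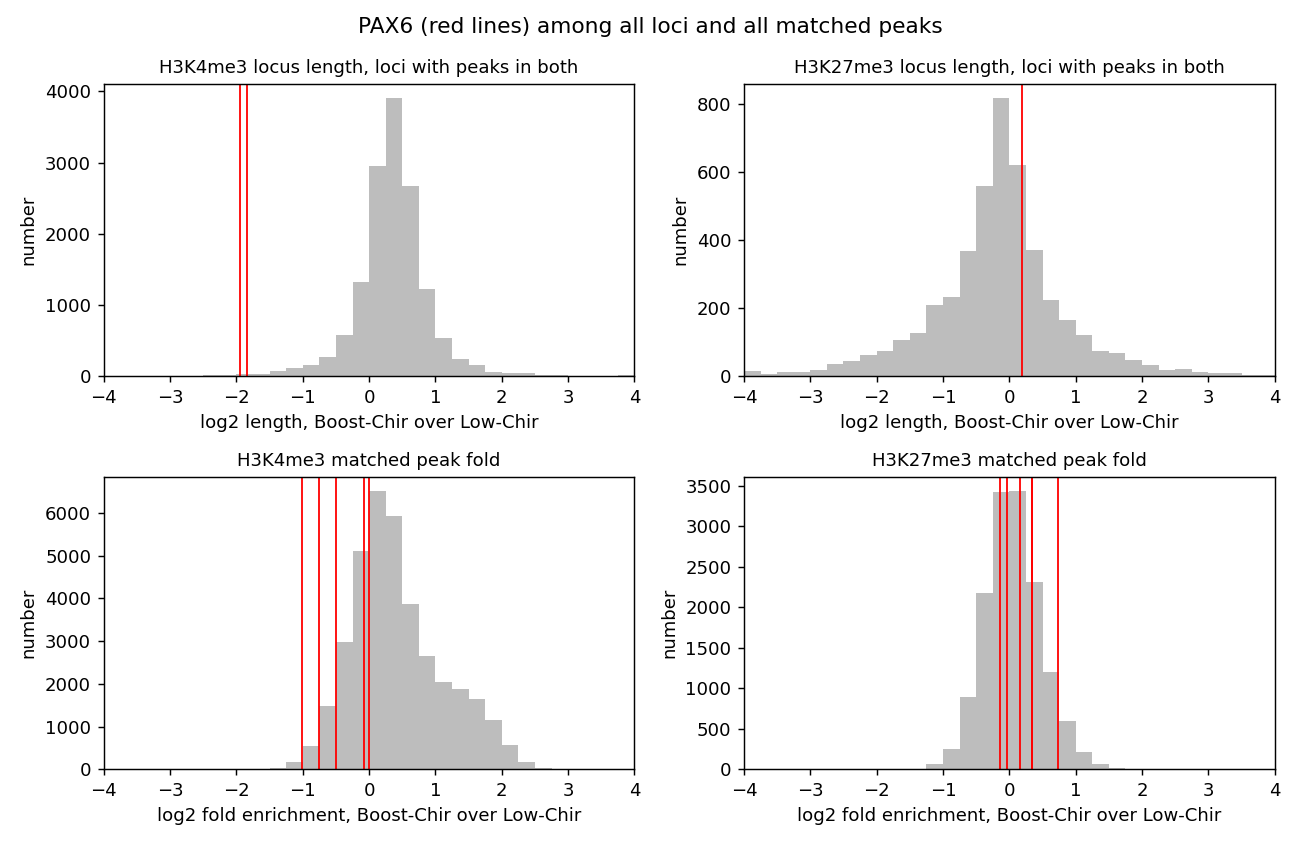
Distribution of the log2 ratio of Boost-Chir to Low-Chir for the length of loci with peaks in both conditions (top) and for the fold enrichment of matched peaks (bottom), for H3K4me3 (left) and H3K27me3 (right). Grey bars count loci or peaks and red lines mark those of PAX6. The H3K4me3 lines lie on the left side of the distributions, with length ratios of 0.261 and 0.279, and the H3K27me3 lines lie inside theirs.

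H3K27me3 covered PAX6 in both conditions and belonged to the strongest Polycomb signal of each list. It took up 29.15 kb, or 58.3% of the window, in Low-Chir against 34.0 kb, or 68.0%, in Boost-Chir, a ratio of 1.17. Of the Low-Chir bases, 98.5% were also covered in Boost-Chir. Most of this length lay in 2 long peaks that both lists shared. The left one ran from 31820439 to 31831173 in Low-Chir, and its counterpart in Boost-Chir from 31820403 to 31831998. Its enrichment was 9.52-fold with 45 reads (32.8 to 60.2) in Low-Chir against 12.1-fold with 48 reads (35.4 to 63.6) in Boost-Chir. The right one ran from 31833758 to 31850979 in Low-Chir, and its counterpart in Boost-Chir from 31835268 to 31851746, at 9.97-fold with 45 reads (32.8 to 60.2) and 11.1-fold with 44 reads (32.0 to 59.1). These folds exceeded 99.4% and 99.5% of the peaks of the Low-Chir list, and 99.98% and 99.95% of the Boost-Chir list. The read intervals of the 2 conditions overlapped for both peaks. Part of the difference in fold lay in the local background. It was 3.74 reads at the left and 3.52 at the right summit in Low-Chir, against 3.03 at each in Boost-Chir. Scaled to depth, the reads above background were 1.12 times as high in Boost-Chir at the left peak and 1.02 times at the right. The summit of the left peak was 5106 bp apart in the 2 conditions, and that of the right peak 661 bp.

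Every Low-Chir H3K27me3 peak of the window met a Boost-Chir peak, so 0 of 6 lacked a partner, against 43.1% of all Low-Chir peaks. The fold enrichment was lower in Boost-Chir at 2 of the 6, against 46.5% of all 14646 matched peaks, and the median ratio was 1.19, against 1.03 over all. Each was compared with the overlapping Boost-Chir peak of highest fold, and for 2 of the 6 this was the same long peak, so the 6 ratios rest on 5 Boost-Chir peaks. Of the 15 Boost-Chir peaks, 8 had no Low-Chir partner, against 36.3% of all Boost-Chir peaks. These 8 were all on the left, from 31812412 to 31817917, beyond the end of the Low-Chir domain and in the direction in which the gene is read. They covered 3.27 kb of this stretch of 5.51 kb, with no H3K4me3 peak in either condition.

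Most of the added H3K27me3 peaks were below the median height of their list. Their fold enrichments were 3.57 to 5.48 with 15 to 27 reads at the summit, and 6 of the 8 lay below that median, 4.20. Of the other 7 Boost-Chir peaks of the window, 4 lay within that range of folds and 3 above it. The strongest, at 31817269 to 31817620, had 5.48-fold enrichment and 27 reads (17.8 to 39.3). Next to them, a Boost-Chir peak from 31818366 to 31820333 with 6.02-fold enrichment and 31 reads (21.1 to 44.0) overlapped a Low-Chir peak of only 339 bp at 4.77-fold with 20 reads (12.2 to 30.9). The joined domain thus began 7.52 kb further left in Boost-Chir and also ended 2.51 kb further right, outside the window. It spanned 36.1 kb in Low-Chir against 46.1 kb in Boost-Chir, of which peaks covered 92.4% and 82.3%. Peaks of the whole domain added up to 33.4 and 38.0 kb, a difference of 4.59 kb. This is short of 5 kb, a difference that 0.305% of all 7868 H3K27me3 loci reached, and 31 loci had a higher one than PAX6. By ratio, 1.14, the domain was not far from the middle, since 28.9% of the loci with peaks in both conditions had a ratio at or above it.

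Between the 2 long H3K27me3 peaks lay a short stretch, set in each condition as the gap between them. That H3K27me3 was broken up there follows from this choice. It ran from 31831174 to 31833757 in Low-Chir, with 3 peaks of 4.52-fold to 7.25-fold that covered 70.9% of it. In Boost-Chir it ran from 31831999 to 31835267, with 4 peaks of 3.62-fold to 5.09-fold that covered 74.9%. H3K4me3 was dense here, with 2.00 kb of the 2.58 kb in Low-Chir against 1.31 kb of the 3.27 kb in Boost-Chir. The sharp Low-Chir H3K4me3 peak near 31832659 and the highest Boost-Chir one near 31833536 both had their summits in this stretch. In Boost-Chir the H3K4me3 peak of highest fold thus lay between the 2 long H3K27me3 peaks. Its summit was inside a short H3K27me3 peak of 4.39-fold with the summit at 31833509. The long peaks had their summits far off, at 31825011 and 31844224, so their higher folds do not show a local dip. The 19 reads (11.4 to 29.7) of this H3K4me3 peak overlapped the 14 (7.65 to 23.5) of the 4.07-fold one. In Low-Chir the 6.57-fold H3K4me3 peak also lay in the stretch. The highest H3K4me3 peak of Low-Chir, at 7.54-fold, and the one at 6.23-fold had their summits inside the long H3K27me3 peaks. The same was true of the Low-Chir H3K4me3 summit with the most reads, 26, near 31830521. The edges of the stretch differ by condition, and the 6.23-fold summit, at 31835089, lies inside the stretch as set in Boost-Chir. No difference between the conditions is therefore read from these positions.

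Nearly all H3K4me3 over PAX6 lay under H3K27me3, and most of the difference between the conditions was in this doubly marked length. Bases under peaks of both marks added up to 11.3 kb in Low-Chir against 3.11 kb in Boost-Chir, which is 0.276 times as much, or 0.0323 times with the top 50% of each list. They made up 89.1% of the H3K4me3 length in Low-Chir against 92.7% in Boost-Chir. Most H3K4me3 lay between 31820 and 31840 kb, where H3K27me3 was nearly continuous. There it covered 4.249 to 5 kb of each 5 kb step in Low-Chir, and 4.245 to 5 kb in Boost-Chir. Shares this high therefore follow from the domain and are no finding about the H3K4me3 bases. Seen from H3K27me3, 38.7% of its length also carried H3K4me3 in Low-Chir, against 9.14% in Boost-Chir. Length under H3K27me3 alone was 17.9 kb in Low-Chir against 30.9 kb in Boost-Chir, and length under H3K4me3 alone was 1.38 and 0.246 kb. Of the 9437 bases with H3K4me3 in Low-Chir and not in Boost-Chir, 8429 (89.3%) were under H3K27me3 in both conditions and 735 came under it only in Boost-Chir. Most of the H3K4me3 length found in Low-Chir alone thus lay where H3K27me3 was called in both conditions. This too follows from the nearly continuous domain and is no finding about these bases. Both peaks at 1 base do not show that both marks sat on the same chromosomes, since a culture can hold cells of either kind. The right end of the window, from 31840 to 31850 kb, was under H3K27me3 throughout and free of H3K4me3 peaks in both conditions, and the first 10 kb held no peak of either mark.

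**Figure D4:**
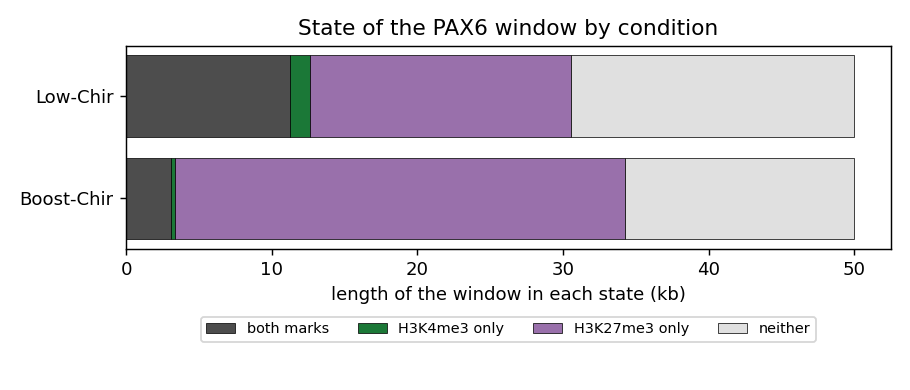
Length of the 50 kb PAX6 window, in kb, under peaks of both marks, of H3K4me3 only, of H3K27me3 only and of neither, as stacked bars for each condition. The doubly marked part is 11.3 kb in Low-Chir against 3.11 kb in Boost-Chir, and the part with H3K27me3 only 17.9 kb against 30.9 kb.

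To the right, H3K27me3 went on past the edge of the window with little break. The right long peak ended at 31850979 in Low-Chir and the next peak began at 31851084. In Boost-Chir these positions were 31851746 and 31851812. The nearest H3K4me3 peaks outside the window were 266 kb to the left and 262 kb to the right in both conditions, and to the left the nearest H3K27me3 peak was 1190 kb away in Low-Chir, against 711 kb in Boost-Chir.

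The loci nearest to PAX6 in these lengths were, by the choice itself, long H3K27me3 domains with shorter H3K4me3. Joining all peaks of the 4 lists within 3 kb gave 19619 loci, and likeness was measured as the distance between the 4 lengths of a locus and those of PAX6 on the log2(kb + 1) scale. The nearest was on chromosome 5 at 87952869 to 87995181, with 9.23 kb of H3K4me3 in Low-Chir against 2.89 kb in Boost-Chir, and 37.2 and 39.0 kb of H3K27me3. Unlike at PAX6, its highest H3K4me3 peak was not lower in Boost-Chir, at 6.89-fold and 7.27-fold. The next was on chromosome 2 at 45143338 to 45187031, with 8.60 and 4.75 kb of H3K4me3 and 33.8 and 35.2 kb of H3K27me3. The other 3 lay on chromosome 4 at 111529706 to 111568265, chromosome 14 at 37106919 to 37145005 and chromosome 4 at 174412592 to 174466592. Their H3K4me3 ratios were 0.706, 0.640 and 0.732, against 0.265 at PAX6. The loci were chosen on these 4 lengths, so that they resemble PAX6 in them is no finding, and it says nothing of shared function.

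**Figure D5:**
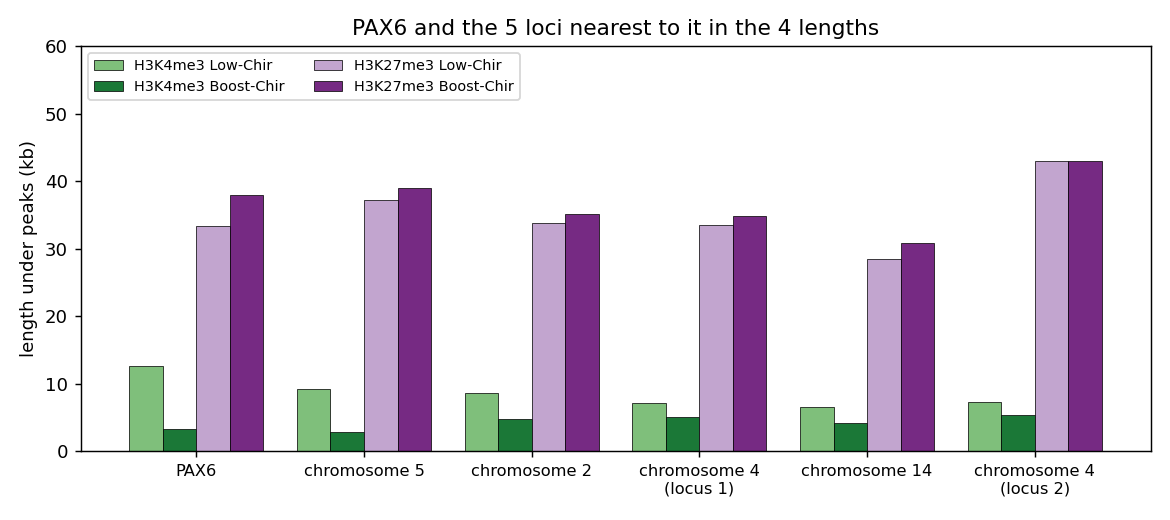
Length under peaks in kb (vertical) for each mark and condition at PAX6 and at the 5 loci with the most similar 4 lengths (horizontal, by chromosome). H3K4me3 is 12.7 and 3.36 kb at PAX6. The other 5 were chosen for their likeness in these same lengths, so the shared pattern follows from the choice.

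Loci that were broad in both marks gave a frame of comparison. With at least 5 kb of H3K4me3 and at least 10 kb of H3K27me3, each in either condition, there were 113 such loci, PAX6 included. The H3K4me3 length was lower in Boost-Chir at 36 of these and at least 2 times shorter at 8, with a median ratio of 1.17. A ratio at or below the 0.265 of PAX6 was found at 4, PAX6 included. H3K27me3 was longer in Boost-Chir at 38 of the 113, with a median ratio of 0.948, and 10 had a ratio at or above the 1.14 of PAX6. At 27 loci H3K4me3 was shorter and H3K27me3 longer, as at PAX6.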

How the data were processed

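ChIP-seq peak lists of 4 antibody libraries were used, and the 2 input libraries were not used here. The submitters' processing notes name cutadapt 1.6, BWA 0.7.12, Picard and hg19. Which program called the peaks, and at what threshold, is not given in the sources used here. Per the peak names that the authors deposited, calling was done on each antibody library against the input of its condition. The deposited columns used were start, end, summit, fold enrichment (a ratio over the authors' local background), −log10 p-value and −log10 q-value. The deposited score, which follows from the −log10 q-value, was not used.

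Reads at a summit were solved from fold and p, with fold taken as (reads + 1) over (background + 1), after scaling, and p as a Poisson tail. The −log10 p of every peak (100%) came back within 0.001, and the procedure was tested on simulated data. Those data were made with the same formulas, so that test checks the solving only, not whether the formulas apply. Reads above background per unit of depth are the reads minus the local background, over the genome-wide background. Peaks were matched when they overlapped by at least 1 bp, each to the partner of highest fold, and joined within 3 kb into loci. Lengths are bases under peaks inside the window. Python 3.11.15, numpy 2.4.6, scipy 1.17.1 and matplotlib 3.10.9 were used.

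The gene, its window and the rules were chosen with earlier results of these data known. The 5 nearest loci were named by their distance in the 4 lengths. The limits that define loci broad in both marks, the limit of 2 kb and the choice of the other sites named were set after seeing the values. Planned gene lists were not used, because no annotation of hg19 was at hand. Alternatives to the peaks, joining, window and measure of height are given at the end.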

Additional observations from a re-analysis of the deposited data

How the results depend on the processing

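No paired analysis was possible because no group had more than 1 library. All alternatives listed here were planned, and none turned a direction. Any change in the third digit is given as a move, since no replicate spread was at hand. For H3K4me3 length, Boost-Chir over Low-Chir, the ratio of 0.265 became 0.0387 with the top 50% of each list by −log10 q, 0.226 with a −log10 q of at least 3, 0.367 and 0.336 with peaks within 1 and 3 kb joined, and 0.216 with lists cut to equal peak numbers. For length under both marks, the ratio of 0.276 became 0.0323, 0.237, 0.399, 0.363 and 0.224 in the same order. A window wider by 25 kb on each side, or whole peaks with their summit in the window, left both as they were. For H3K27me3 length, the ratio of 1.17 became 1.10 with the top 50%, 1.25 with either joining, 1.14 with the wider window and 1.19 with whole peaks. The highest H3K4me3 fold in the window, with a ratio of 0.614, gave 0.575 as reads above background per unit of depth and 0.708 as the median over matched peaks. For H3K27me3, 1.21 became 1.12 and 1.19. With the top 50%, H3K4me3 in Boost-Chir was down to 0.268 kb, so that value rests on 1 peak. Summits of 11 to 48 reads limit what a single peak can show.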
